A study of Mus musculus with 6 samples.

Results

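Cadherins, connexins and pannexins are the membrane proteins through which neighbouring osteoblasts hold on to each other, pass small molecules and release ATP. Their transcripts were compared between differentiated and undifferentiated MC3T3-E1 cells, which are mouse osteoblast precursors established as a line from skull bone of newborns. The set held 10 genes from these families, chosen with earlier results of these data known, though not by a threshold on a measured value. It held the cadherin genes Cdh1, Cdh2, Cdh3, Cdh11 and Cdh13, the connexin genes Gja1, Gjc1 and Gjb2, and the pannexin genes Panx1 and Panx3. All 10 were found by their RefSeq transcript among 17298 named genes, on 11 of 42586 features of 9 probes each, Cdh3 having 2 features. RNA of 6 cultures, given as biological triplicates at passages 5 to 12, was hybridized to single-colour NimbleGen arrays. The 3 undifferentiated cultures grew in alpha MEM with 10% serum, and the 3 differentiated cultures had in addition 50 µg/mL ascorbic acid and 10 mM glycerol-2-phosphate for 15 days. Every culture, in both groups, had been treated for 24 h with 100 nM 1,25(OH)2D3, the active hormone form of vitamin D. The comparison therefore addresses how the groups differed under the hormone and gives no response to it, and a cell line grown alone holds none of the other cells of bone.

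As background, cadherins are calcium-dependent adhesion proteins that bind their like on the next cell and, by their cytoplasmic tails, bind catenins and so the actin cytoskeleton. Connexins assemble into gap junctions that join the cytoplasm of adjacent cells, whereas pannexins, which have a similar membrane topology, mostly form channels to the outside and release ATP that acts on purinergic receptors. In bone, N-cadherin (Cdh2) and cadherin-11 (Cdh11) are the main cadherins of osteoblasts, and the Gja1 product is the main connexin of osteoblasts and osteocytes.

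Levels are given as the log2 of the deposited intensity. The control feature of random probes, which served as the background line, read 96.3 to 112 in intensity, or 6.59 to 6.81 on the log2 scale. Its name carries a low GC range, and only 5.61% to 6.8% of the features of an array lay at or below it. The median feature of an array read 793 to 835, so a value above the control is weak evidence of expression. Arrays of the same group correlated across features at 0.979 to 0.994 (undifferentiated) and 0.992 to 0.996 (differentiated), and arrays of different groups at 0.958 to 0.978 (Pearson's r, with features that are not independent replicates). Undifferentiated replicate 3 stood apart from replicates 1 and 2, and its array number has another start than theirs, one that it shares with the differentiated arrays. For some, but not all, of the genes in which it stood out, values are also given without it or against it alone. The image names of the groups carry different dates, so image date and group cannot be told apart. The osteoblast label was checked on 8 marker genes, none of which lay at or below the control on all arrays. Of these 3 rose and 5 did not pass, beside 8.58% of all named genes that rose by the same test. Alpl, the mineralization phosphatase, rose by 3.70 on the log2 scale (adjusted p = 6.79e-08, limma), Bglap by 1.10 and Sp7 by 0.70. Col1a1, Col1a2 and Runx2 differed by 0.07, 0.03 and 0.09. Spp1 differed by -0.32, with all its differentiated arrays lower. Ibsp differed by 0.11 and lay only 0.19 (undifferentiated) and 0.18 (differentiated) above the control. Of 6 macrophage markers 1 fell, and of 7 cartilage markers 2 rose and 1 fell, beside 10.9% of all named genes that fell.

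Of the 10 genes 6 changed, 3 in each direction. Differentiated cells carried less transcript of Gja1, Cdh2 and Panx1 and more of Cdh13, Cdh1 and Cdh11. The 3 decreases and the rise of Cdh13 ranged from 1.69-fold to 2.08-fold and passed in each of 17 alternative settings of the analysis. The calls of Cdh1 and Cdh11 depended on the setting. These settings are not independent checks, and the deposited series table among them repeats the same values and could not change a call. The filters on dim features and the mean of a gene's features also left the differences of the 6 called genes unchanged. Cdh3, Gjc1 and Gjb2 did not pass the test, and Panx3 was not above the random probes on any array. Differences are differentiated minus undifferentiated, tested with limma across all named genes and called at a Benjamini-Hochberg adjusted p under 0.05. By this rule 19.5% of all named genes were called, 8.58% higher and 10.9% lower, beside the 6 of 10 here, and the median difference of the 10 genes was 0.05 against 0.08 over all named genes. The median of the 10 genes turned negative with quantile-normalized arrays (-0.01), cyclic loess (-0.05) and the array number start as a covariate (-0.12). The groups did not overlap for the same 6 genes, 3 higher and 3 lower, against 22.7% higher and 17.4% lower (40.1% together) among all named genes. Expression is that of a whole culture, so fewer cells of a kind and less RNA per cell cannot be told apart.

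**Figure D1:**
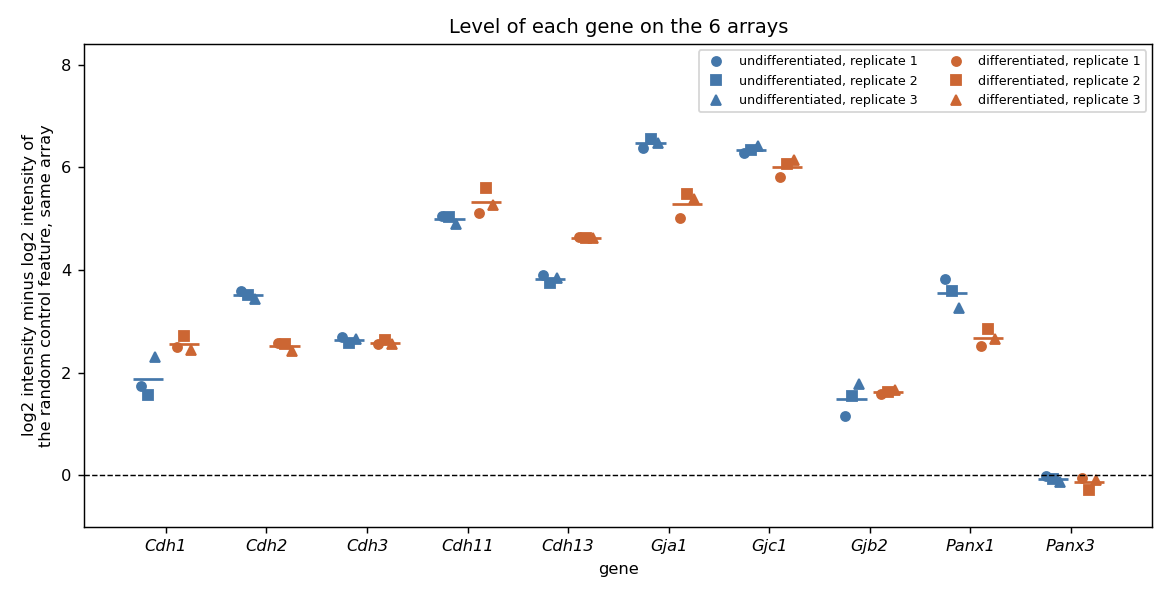
Level of the 10 genes on each array, as log2 intensity minus the log2 intensity of the random control feature on the same array (dashed line at 0), with horizontal bars at the mean of the 3 arrays of a group. Gja1, Cdh2 and Panx1 sit lower and Cdh13 higher in differentiated cells, and Panx3 lies at or under the line on all 6 arrays. Heights depend on each feature's probes and are not compared between genes.

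**Figure D2:**
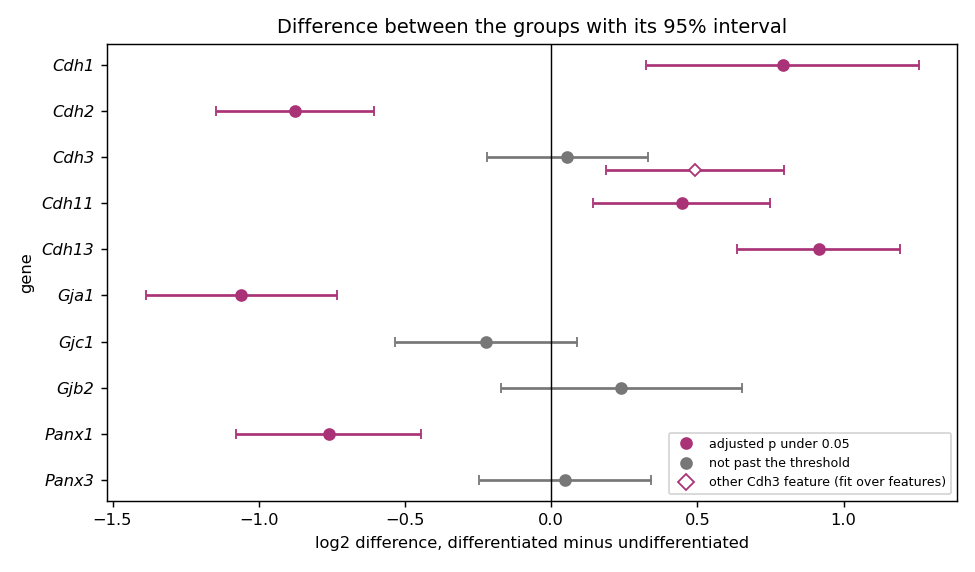
Log2 difference between the groups (differentiated minus undifferentiated) for each gene with its 95% interval from the limma fit, 3 arrays per group. Cdh3 has an open diamond for its other feature, whose difference of 0.49 passed the test while that of the brighter feature, 0.06, did not; Panx3 was not above the random probes.

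Cdh2 encodes N-cadherin, a classical cadherin of mesenchymal and neural cells. Its log2 level was 10.17, 10.11 and 10.21 on the undifferentiated arrays and 9.38, 9.27 and 9.21 on the differentiated arrays. The lowest undifferentiated value exceeded the highest differentiated value, and the values of each group lay close together. The difference was -0.88 ± 0.12 (SE, n = 3 arrays per group), with a 95% interval of -1.15 to -0.61, a 1.84-fold decrease (adjusted p = 0.000923, limma). Undifferentiated replicate 3 lay only 0.07 above the mean of replicates 1 and 2 for this gene, and over the 17 alternatives the difference stayed between -0.96 and -0.84.

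Cdh11 encodes cadherin-11, a type II classical cadherin first known as osteoblast cadherin. It read 11.64, 11.64 and 11.67 in undifferentiated cells, and 11.92, 12.31 and 12.05 in differentiated cells. All differentiated arrays were higher, but they spread more widely (SD 0.20) than the undifferentiated arrays (SD 0.02). The difference of 0.45 ± 0.14 (95% interval 0.14 to 0.75, 1.36-fold) was just past the threshold (adjusted p = 0.0441, limma). It passed in 8 of 17 alternative settings, with an adjusted p of 0.0537 with the replicate number as a block, 0.0713 with equal array medians and up to 0.165 when 1 array was left out, and its size remained between 0.34 and 0.56. Relative to the control feature of its own array, Cdh11 was at 4.90 to 5.05 in undifferentiated and 5.11 to 5.60 in differentiated cells, so that the groups nearly met.

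Cdh13 encodes T-cadherin, an atypical member that lacks the cytoplasmic tail, is held in the membrane by a lipid anchor and binds adiponectin. The undifferentiated arrays gave 10.48, 10.36 and 10.60 and the differentiated arrays 11.44, 11.33 and 11.42. The groups were separated by more than the spread within either. The rise was 0.91 ± 0.13 (95% interval 0.64 to 1.19), or 1.89-fold (adjusted p = 0.00086, limma), and it lay between 0.79 and 0.99 in every alternative.

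Cdh1, the gene of E-cadherin, the classical cadherin of epithelia, read 8.33, 8.18 and 9.08 in undifferentiated cells and 9.30, 9.42 and 9.24 in differentiated cells. Undifferentiated replicate 3 lay 0.83 above the mean of replicates 1 and 2 and close to the differentiated arrays. The difference was 0.79 ± 0.21 (95% interval 0.33 to 1.26, 1.73-fold, adjusted p = 0.0261, limma). Without undifferentiated replicate 3 it was 1.07 (adjusted p = 1.12e-05), whereas in a fit with a term for the array number start, which sets the differentiated arrays against replicate 3 alone, it was 0.24 (adjusted p = 0.371). The call also ended when any other array was left out, with adjusted p from 0.0689 to 0.12. Epithelial marker genes moved the same way in part, beside 8.58% of all named genes called higher. Of the 10 in the list, 2 rose (Krt14 by 0.71 and Elf3 by 0.56 on the log2 scale) and 8 did not pass. With the array number start neither passed (0.47 for Krt14, adjusted p = 0.0799, and 0.42 for Elf3, adjusted p = 0.0813). The summed intensity of the list was 4040 to 5469 in undifferentiated and 6027 to 6493 in differentiated cells. None of the 10 was at or below the control on all arrays. Of the 10, 9 differed upward, with a median of 0.27, as did 59.4% of all named genes, whose median was 0.08. Among named genes with a mean log2 level from 8 to 10, 71% differed upward, with a median of 0.22. Below 8 it was 74.6%, with a median of 0.11. With the array number start 6 of the 10 markers differed upward, with a median of 0.04. The part of level in the result was not tested, nor what such markers stand for in a cell line grown alone.

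Cdh3, which encodes P-cadherin, gave different answers on its features. On the brighter one, NM_001037809, levels were 9.28, 9.19 and 9.43 against 9.37, 9.36 and 9.34, and the groups overlapped. The difference was 0.06 ± 0.12 (95% interval -0.22 to 0.33, adjusted p = 0.772, limma), and its sign turned under 3 alternatives. On the other, NM_007665, levels were 8.70, 8.95 and 9.05 against 9.49, 9.33 and 9.36, with no overlap. That difference was 0.49 ± 0.14 (adjusted p = 0.0316 in the limma fit over all features, where 19.6% were called). With the mean of both features as the gene's value the difference was 0.27 and did not pass (adjusted p = 0.14).

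The cadherins thus shifted relative to each other within the same cultures. On each array the log2 ratio of Cdh11 to Cdh2 was taken, whose height depends on the probes and of which only the change is read. It was 1.47, 1.53 and 1.46 on the undifferentiated arrays and 2.54, 3.05 and 2.84 on the differentiated arrays, a shift of 1.32 or 2.50-fold. The ratio of Cdh13 to Cdh2 shifted by 1.79, or 3.46-fold, from 0.25 to 0.39 on the undifferentiated arrays to 2.06 to 2.20 on the differentiated ones. Undifferentiated replicate 3 lay beside its own group for both ratios. These pairs were chosen after their values were seen, so the shifts are given as a description.

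Gja1 encodes the gap junction protein connexin-43, whose channels couple osteoblasts. Its log2 level was 12.96, 13.16 and 13.24 in undifferentiated cells and 11.81, 12.20 and 12.17 in differentiated cells. All differentiated arrays lay below all undifferentiated ones, and in linear intensity the range went from 7977 to 9653 down to 3603 to 4700. The difference of -1.06 ± 0.15 (95% interval -1.39 to -0.73) is a 2.08-fold decrease (adjusted p = 0.000931, limma), larger in size than that of the other 9 genes, and 3.57% of all named genes were called with a change of at least 2-fold. Leaving out an array moved it between -1.14 and -0.94. Gja1 nevertheless stayed well above the random probes in differentiated cells, by 5.29 on the log2 scale against 6.47 before.

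Gjc1 encodes a further connexin of osteoblasts, connexin-45, whose subunits can mix with those of Gja1 in one channel. It read 12.87, 12.94 and 13.17 in undifferentiated cells and 12.62, 12.77 and 12.93 in differentiated cells, and the groups overlapped. The difference, -0.22 ± 0.14 (95% interval -0.53 to 0.09), did not pass (adjusted p = 0.27, limma) in any of 17 alternatives. The log2 ratio of Gjc1 to Gja1 on the same array, a pair also chosen after its values were seen, was -0.09, -0.22 and -0.07 in undifferentiated and 0.80, 0.57 and 0.76 in differentiated cells, a shift of 0.84. Gjb2, the connexin-26 gene, best known from epithelia and the inner ear, lay low, at 7.74, 8.16 and 8.55 against 8.39, 8.33 and 8.45. The undifferentiated arrays spanned the differentiated ones, and the difference of 0.24 (95% interval -0.17 to 0.65) did not pass (adjusted p = 0.373, limma). It passed without undifferentiated replicate 3, at 0.44 (adjusted p = 0.0185), which raised the count of called genes from 6 to 7.

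Panx1 encodes a widely expressed channel that releases ATP to the outside of the cell. Its levels were 10.42, 10.19 and 10.03 on the undifferentiated and 9.34, 9.57 and 9.45 on the differentiated arrays, with no overlap. Undifferentiated replicate 3 was the lowest of its group, 0.28 below the mean of replicates 1 and 2. The fall of -0.76 ± 0.14 (95% interval -1.08 to -0.45) amounts to 1.69-fold (adjusted p = 0.005, limma). Against replicate 3 alone, in the fit with the array number start, it was -0.57 and still passed (adjusted p = 0.0263). Panx3, known from developing cartilage and bone, read 6.57, 6.54 and 6.64 against 6.76, 6.44 and 6.70. Each of these values was at or below the control feature of its array, so no fold is given, and the arrays set no level for this gene in either group.

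Of the 10 genes, RefSeq promoter windows on GRCm38.p6, from 250 bases before to 50 bases after the gene's start, were held for Gja1, Panx1 and Gjb2. The windows of Gja1 and Panx1 are shown because both genes fell. Capitals mark matches, on either strand, to the AP-1 motif TGANTCA, the nuclear receptor core AGGTCA and the E-box CAGGTG. They also mark the RUNX core TGTGGT and the GC box GGGCGG. None of the matches overlap in these windows. The receptor core is only part of a hormone response element.
Gja1, chr10:56377050-56377349, plus strand: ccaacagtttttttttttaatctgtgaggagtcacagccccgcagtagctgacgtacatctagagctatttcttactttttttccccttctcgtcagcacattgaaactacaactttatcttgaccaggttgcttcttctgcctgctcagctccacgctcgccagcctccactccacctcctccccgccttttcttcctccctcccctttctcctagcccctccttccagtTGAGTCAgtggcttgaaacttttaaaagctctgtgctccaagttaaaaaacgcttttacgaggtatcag
Panx1, chr9:15045429-15045728, minus strand: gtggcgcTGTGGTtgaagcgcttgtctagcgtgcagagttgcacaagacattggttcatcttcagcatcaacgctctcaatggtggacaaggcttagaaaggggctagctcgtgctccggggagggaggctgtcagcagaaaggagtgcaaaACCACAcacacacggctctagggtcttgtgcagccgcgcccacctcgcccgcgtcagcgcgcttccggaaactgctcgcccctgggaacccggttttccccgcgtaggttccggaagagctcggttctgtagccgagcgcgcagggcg

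The Gja1 window held the AP-1 letters once, starting 19 bases before the start, as do 7.8% of 32851 windows of this length. The Panx1 window held the RUNX core letters at 243 bases before the start and, on the minus strand of the window, at 98 bases before it, and 16.8% of windows hold them at least once. Neither window held the other motifs, which occur in 16.3% (receptor core), 20.2% (E-box) and 35.7% (GC box) of all windows. The Gjb2 window held the receptor core, the E-box and the GC box. The bases G and C made up 47.7% of the Gja1 window, 61.3% of the Panx1 window and 70.0% of the Gjb2 window, with a median of 52.7% over all windows. A match describes the letters of the window and not a bound site.

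The spread between arrays also differed among the genes. In undifferentiated cells the SD ran from 0.02 (Cdh11) to 0.49 (Cdh1) with a median of 0.13, against a median of 0.20 over all named genes. In differentiated cells it ran from 0.01 (Cdh3) to 0.21 (Gja1) with a median of 0.11, against 0.12 over all named genes. Cdh1 and Gjb2, whose undifferentiated replicate 3 lay 0.83 and 0.60 above the other replicates, were the genes in which that array lay farthest from its group, while for Cdh2 and Cdh11 it lay within 0.07.

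For each called gene the 3 named genes with the nearest profile were listed, by the root mean square distance of centred log2 values over the 6 arrays. Nearest to Gja1 were Zfp758 (0.045), Zhx1 (0.047) and the annexin gene Anxa3 (0.058). Nearest to Cdh2 were the actin-depolymerizing factor gene Cfl2 (0.045), Ggta1 (0.052) and Gfpt2 (0.070), and nearest to Panx1 were Rnf2 (0.034), Farp1 (0.037) and the G protein gene Gnaq (0.041). Among the genes that rose, Cdh13 was nearest to Itih3 (0.052), Cdh11 to Mcf2l (0.051) and Cdh1 to Defb20 (0.095). Cdh1 was the called gene whose nearest profile lay farthest away.

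Transcripts of some connexin scaffolds and partners fell. Of 9 in the list, none rose, 3 fell and 6 did not pass, beside 10.9% of all named genes called lower. The median difference was -0.04 against 0.08 over all named genes, and 3 of the 9 differed upward. Tjp1, which encodes the scaffold ZO-1 that binds the tail of the Gja1 product, read 11.10, 11.12 and 11.53 in undifferentiated and 10.03, 10.41 and 10.03 in differentiated cells. It fell 2.13-fold (adjusted p = 0.00148, limma) and the caveolar coat gene Cav1 fell 1.66-fold (adjusted p = 0.0135). Tjp1 passed in all 17 alternatives and Cav1 in 15. Without undifferentiated replicate 3 the list had 5 calls, 1 higher and 4 lower, and without undifferentiated replicate 2 or differentiated replicate 1 it had 2. Quantile normalization and cyclic loess gave the list a positive median (0.06 under each), as did leaving out undifferentiated replicate 3 (0.03).

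Among 10 measured catenins and cadherin partners, 2 rose, 1 fell and 7 did not pass, with a median of 0.19. Of all named genes 19.5% were called in either direction. Arvcf, a catenin of the p120 family, rose 1.63-fold (adjusted p = 0.0351, limma) and the catenin-like Ctnnal1 rose 1.40-fold (adjusted p = 0.0268), while the gene of vinculin, Vcl, fell 1.39-fold (adjusted p = 0.0337). Arvcf differed by 1.11 with the array number start, against 0.70. These 3 calls passed in 10 to 12 of 17 alternatives, and the list had none when undifferentiated replicate 2 or any single differentiated array was left out and 6 without undifferentiated replicate 3. Ctnnb1, the β-catenin gene, singled out here after its value was seen, differed by -0.02 with a 95% interval of -0.37 to 0.32 (adjusted p = 0.926). Of 14 other cadherin genes measured, 1 rose, 2 fell and 11 did not pass, beside 19.5% called among all named genes. Cdh22 fell 2.54-fold (adjusted p = 0.0061), from 11.39, 11.50 and 10.54 to 10.21, 9.77 and 9.42, and passed in all 17 alternatives. Undifferentiated replicate 3 was the lowest of its group, and against it alone, in the fit with the array number start, the difference was -0.74 (adjusted p = 0.0303) instead of -1.34, while without it the difference was -1.64. Cdh24 rose 1.46-fold (adjusted p = 0.0163) and Cdh17 fell 1.36-fold (adjusted p = 0.0491), and without undifferentiated replicate 3 the list had 7 calls, against 1 when any single differentiated array was left out. Cdh5, the endothelial cadherin gene, was at or below the control on all arrays. Endothelial markers are set beside Cdh13, which endothelial cells also express: 3 of 9 were higher, and all 9 differed upward, with a median of 0.34. Of all named genes 8.58% were called higher and 59.4% differed upward, or 71% at a mean log2 level from 8 to 10 and 74.6% below 8. Cdh5 was among the 9, and Tie1 lay only 0.17 (undifferentiated) and 0.12 (differentiated) above the control. With the array number start 7 of the 9 differed upward, with a median of 0.21. Tek was higher 2.08-fold (adjusted p = 0.0033, limma) and passed in each of 16 alternatives that gave it a value. Esam was higher 1.40-fold (adjusted p = 0.0263) and passed in 12 of 17, and Pecam1 1.37-fold (adjusted p = 0.0493) and passed in 5 of 17, with an adjusted p of up to 0.422. The summed intensity was 3046 to 3485 against 3989 to 4458, and their part in the result was not tested.

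Of 17 measured genes of the other connexins and Panx2, 3 rose and 14 did not pass. Of all named genes 8.58% were called higher and 19.5% in either direction. All 17 had a positive difference in the deposited values, with a median of 0.43, as did 59.4% of all named genes, and one of the 17, Gja6, lay at or below the control on all arrays. With equal array medians 16 of 17 were positive, with quantile normalization or cyclic loess 15, and 12 in the fit with the array number start, where the median was 0.16. Panx2 rose 1.63-fold (adjusted p = 0.0366, limma), Gja5 1.47-fold (adjusted p = 0.0285) and Gja10 1.39-fold (adjusted p = 0.029). None of these 3 calls passed in the fit with the array number start, where Panx2 differed by 0.20 (adjusted p = 0.508), and its groups overlapped. Cyclic loess left 1 call in the list. Leaving out undifferentiated replicate 3 gave 9 calls, leaving out differentiated replicate 3 gave 1, and leaving out any of the other 4 arrays gave 0. Named genes with a mean log2 level from 8 to 10, the range of several of these connexins, had a median difference of 0.22, with 71% positive, against medians of -0.04 from 10 to 12 and -0.08 from 12 up. Below 8 the median was 0.11, with 74.6% positive. Skeletal muscle markers, in which 2 of 8 rose (Tnnt3 by 0.58 and Ckm by 0.57 on the log2 scale), had a median of 0.43 as well and a summed intensity of 3762 to 5099 against 5540 to 6179. With the array number start these were 0.45 (adjusted p = 0.11) for Tnnt3 and 0.24 (adjusted p = 0.358) for Ckm, and both calls also ended when undifferentiated replicate 2 or differentiated replicate 1 or 3 was left out. The part of level in these values was not tested, nor what muscle markers stand for in a cell line grown alone.

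**Figure D3:**
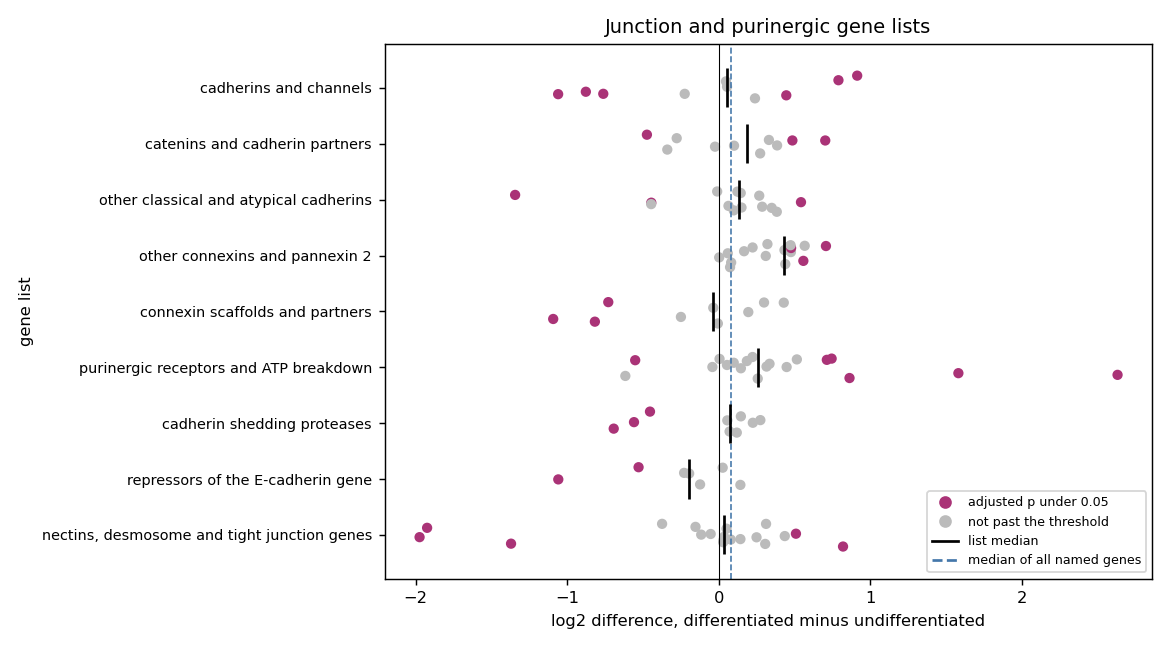
Log2 difference (differentiated minus undifferentiated) of every measured gene in the set and in 8 related lists, with a black bar at each list's median and a dashed line at the median of all named genes (0.08). Coloured points passed the limma test, among them Nt5e at 2.63 on the right and Pkp2 and Cldn1 near -2 on the left.

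ATP that leaves cells through pannexin and connexin channels acts on purinergic receptors and is broken down at the cell surface. Of 19 such genes, 5 rose, 1 fell and 13 did not pass, with a median of 0.26. Of all named genes 19.5% were called, 8.58% higher and 10.9% lower. Nt5e, the ecto-nucleotidase that turns AMP into adenosine, rose 6.20-fold (adjusted p = 1.4e-06, limma), from 8.48, 8.58 and 8.65 to 11.36, 11.31 and 10.95. P2ry2, a receptor gene for ATP and UTP, rose 3.00-fold (adjusted p = 2.87e-05). The ATP-gated channel gene P2rx5 rose 1.82-fold (adjusted p = 0.00175), and like Nt5e and P2ry2 it passed in every alternative. P2rx7, whose receptor has been tied to Panx1 opening, rose 1.68-fold (adjusted p = 0.0391) and passed in 12 of 17. Its undifferentiated replicate 3 lay 0.87 below the mean of replicates 1 and 2. The differentiated mean lay 1.32 above replicate 3 alone, against 0.75 above the mean of all 3. The member that fell was the ecto-ATPase gene Entpd3, and the fifth that rose was the pyrophosphate-forming Enpp1. The list had 10 calls without undifferentiated replicate 3 and 4 to 7 when any other array was left out.

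Of 9 measured genes of cadherin-cutting proteases and their subunits, 3 fell and 6 did not pass, beside 10.9% of all named genes called lower. Mmp7, 1 of the 9, lay at or below the control on all arrays. Adam9, Adam10 and Adam17, sheddases of the cell surface, fell 1.62-fold (adjusted p = 0.0306, limma), 1.47-fold (adjusted p = 0.0433) and 1.37-fold (adjusted p = 0.0283). None of these calls remained after quantile normalization or cyclic loess, or when undifferentiated replicate 2 or any single differentiated array was left out, and 1 call was left without undifferentiated replicate 1. With the array number start the differences of Adam9 and Adam10 were larger, -1.13 (adjusted p = 0.000294) and -0.92 (adjusted p = 0.00122) against -0.69 and -0.56. Of 7 genes known as repressors of the E-cadherin gene, none rose, 2 fell and 5 did not pass, with a median of -0.19. Zeb2 read 11.80, 11.73 and 12.31 in undifferentiated and 10.66, 11.03 and 10.97 in differentiated cells. It fell 2.08-fold (adjusted p = 0.00269) and passed in all 17 alternatives. Undifferentiated replicate 3, the undifferentiated array with the highest Cdh1 level, also had the highest Zeb2 level of the 6. It is 1 array that stood apart from its group, and a link between the 2 genes was not tested. Twist1 fell 1.44-fold (adjusted p = 0.0292) and passed in 11, and the list had 3 calls without undifferentiated replicate 3 and 1 when any other array was left out.

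Some genes of other junctions differed by more than the cadherins described above. Of 19 nectin, desmosome and tight junction genes measured, 2 rose, 3 fell and 14 did not pass, beside 19.5% called among all named genes. Their median was 0.04 and turned negative under quantile normalization, equal array medians, cyclic loess and the array number start as a covariate. The desmosome gene Dsc2 and Marveld2 lay at or below the control on all arrays, and Dsp was not measured. Dsg2 lay only 0.16 (undifferentiated) and 0.12 (differentiated) above the control. Pkp2, the gene of a desmosomal plaque protein, read 11.23, 11.27 and 10.78 in undifferentiated and 9.08, 9.16 and 9.12 in differentiated cells, and fell 3.93-fold (adjusted p = 1.63e-05, limma). Cldn1, the gene of a tight junction claudin, fell 3.79-fold (adjusted p = 2.63e-05), from 11.65, 11.68 and 11.74 to 9.50, 10.09 and 9.71. Nectin3, whose product joins cells beside the cadherins in adherens junctions, fell 2.58-fold (adjusted p = 8.27e-05). Pkp4, of the p120 catenin family, rose 1.77-fold (adjusted p = 0.00576). These 4 genes passed in all 17 alternatives, though Nectin3 changed from -1.37 to -0.80 with the mean of its features and Pkp4 from 0.82 to 0.52 with the array number start, and the list had 8 calls without undifferentiated replicate 3.

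**Figure D4:**
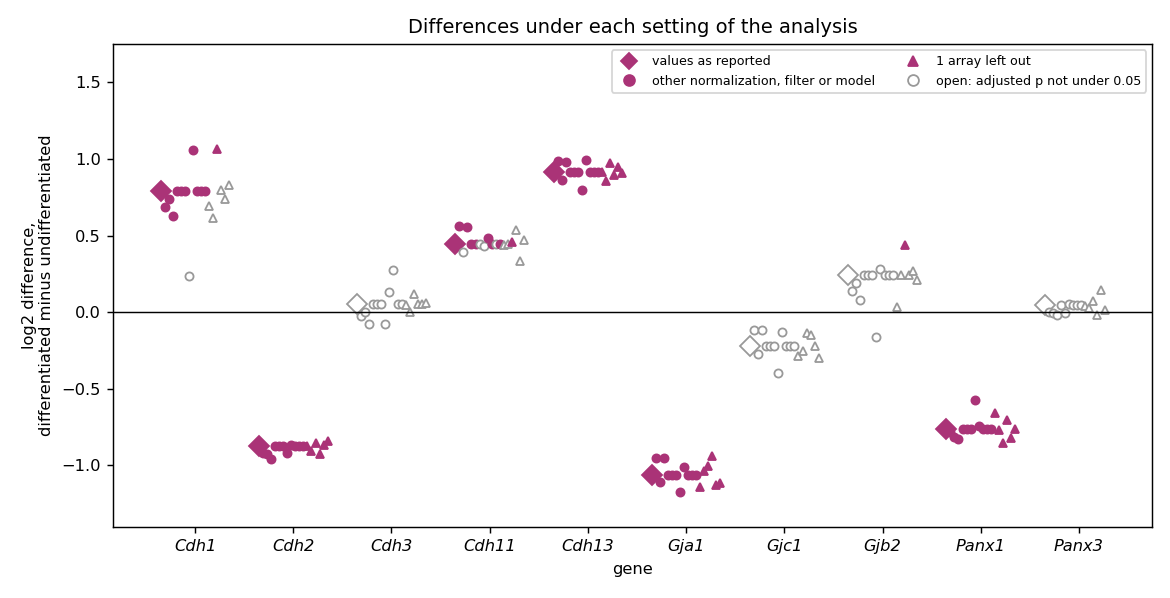
Log2 difference of each gene with the values as reported (diamond), under each other normalization, filter or model (circles) and with 1 array left out (triangles), filled where the adjusted p was under 0.05. Cdh2, Cdh13, Gja1 and Panx1 keep their direction and call throughout, while Cdh1 drops to 0.24 in the fit with the array number start and Cdh11 is open in 9 of 17 alternatives.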

How the data were processed

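Per the submitters' processing notes the authors processed the arrays with RMA, and deposited 1 linear intensity for each feature, beside the probe number and identifier that the file headers name. No RMA version, genome build, annotation or set of arrays processed together is given in the sources used here. The control feature of 6131 random probes, whose name carries a low GC range, was kept out of all tests. The deposited series table repeated these intensity values and had 0 columns of other series. Used as an alternative setting, that table could therefore only repeat the result of the deposited intensities.

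Log2 was taken of the deposited intensities without further normalization. Features were named by unversioned RefSeq transcript in a table of GRCm38.p6 used for names only, which gave 1 symbol to 17849 features (41.9%). For the 467 genes with several features the brightest by its mean over all arrays was used. Groups were compared with limma 3.58.1 (lmFit, eBayes; R 4.3.3) by a 2-sided test, adjusted by Benjamini-Hochberg over all 17298 genes or all 42586 features. Of all named genes, 6366 had an unadjusted p under 0.05. A gene was called not above background in a group if each of its 3 arrays had it at or below the control. The test was run on simulated arrays first. Precision is limited by 3 arrays per group.

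The 10 genes and all lists were chosen with earlier results of these data known. Named from the other lists were up to 4 called genes of each by size. Genes outside this rule are said to be so, complete a small count or are named for a level near the control. A called gene of the connexin scaffold list is counted but not reported here by name. For nearest profiles, clone and predicted names were left out, and for the genes that rose only the nearest is printed. Alternatives were quantile normalization, equal medians, cyclic loess, a replicate block, a term for the first 3 digits of the array number, 2 filters on dim features, array weights (gene-by-gene method), the mean of a gene's features, an intensity trend, the deposited series table and leaving out each array. Deviations of same-numbered arrays from their group means correlated at 0.02, 0.13 and 0.07 across genes. Those of unlike-numbered arrays correlated at -0.11 to 0.04. The numbers were not taken to pair the cultures, though these values do not settle it.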

Additional observations from a re-analysis of the deposited data

How the results depend on the processing

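Of the 10 genes, Cdh2, Cdh13, Gja1 and Panx1 kept direction and call in all 17 alternatives. Cdh1 kept its direction in all 17 and its call in 11, Cdh11 in 17 and 8. The 17 include the deposited series table, whose values are the same and could not change a call. The number of these genes called was 4 to 7 with 1 array left out, 5 with the replicate block, where the call of Cdh11 was lost (0.45, adjusted p = 0.0537) and the other 5 remained, 5 with equal medians and with an intensity trend, and 4 with the array number start. The labels do not say whether same-numbered arrays are paired, and this was not settled. The block left the size of the Cdh11 difference unchanged, as it must in a balanced design. Uncalled differences turned negative for Cdh3 under quantile normalization (-0.025), cyclic loess (-0.074) and the array number start (-0.075), for Gjb2 under the last (-0.16), and for Panx3, which is at the level of the control, under equal medians (-0.0028), cyclic loess (-0.016), the array number start (-0.0036) and without differentiated replicate 1 (-0.015, the lowest of a range up to 0.146 with 1 array left out). Of all named genes, 3367 were called (1485 higher, 1882 lower), 8432 with array weights (4838 and 3594) and 1354 (without differentiated replicate 1) to 7781 (without undifferentiated replicate 3) with 1 array left out. Of all features, 8365 were called, 21748 with array weights and 3371 to 18691 over the same omissions. Without undifferentiated replicate 2 the gene count was 1495, without differentiated replicate 2 it was 2029 and without replicate 3 of that group 1646. The cause of these shifts was not tested. Panx3 has no value under the filters on dim features, which removed it. Low signal limits what can be said of Panx3 and Gjb2. Cdh1 (289 to 685 in intensity) and the brighter Cdh3 feature (585 to 690) also lay below the median feature of every array (793 to 835).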
